A study of Rattus norvegicus with 4 samples.

Results

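The genes described here copy the genome once per cell cycle. They are 44 DNA replication and S-phase genes of the rat, chosen by name for their roles. They include the origin binding and MCM helicase subunits, the replicative polymerases, the clamp and its loader, the enzymes of nucleotide synthesis, the E cyclins and a few replication-linked repair genes. Each gene is the mean over those probe sets that the array annotation gives its symbol and no other. In this way 41 of the 44 genes were measured, of 14217 genes on the array. Cdc6 and Gins2 had no probe set under these symbols, and the 2 probe sets of Rrm2 are assigned to a further gene as well. Of the 41 genes, 31 had 1 probe set and 10 had several.

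Expression was measured with 4 arrays, 1 for each combination of cells and culture format: L6-HGF sheet, L6-WT sheet, L6-HGF monolayer and L6-WT monolayer. L6 is a skeletal myoblast line, labelled as of the Wistar strain. L6-HGF cells carry human hgf, the gene of hepatocyte growth factor, from a pBabepuro retroviral vector and were selected with puromycin, and L6-WT cells are the wild type. The transgene was not checked on these arrays. No line with an empty vector was described, so that hgf, the vector and the selection cannot be told apart, and it was not stated whether L6-HGF is 1 clone or a pool. Sheets are layers of myoblasts that detached whole from thermoreactive dishes at room temperature. The dish, plating density and culture time of the monolayers were not stated. Sheet format, dish, density, time and cooling therefore cannot be told apart.

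Before a cell copies its DNA, the origin recognition complex, with CDC6 and CDT1, loads the ring of 6 MCM proteins at each origin. In S phase the ring is switched on as a helicase, and polymerases, the sliding clamp PCNA and its loader follow it. Many of these genes are transcribed in bursts at the entry into S phase by the E2F factors, and myoblasts that leave the cell cycle to form myotubes turn them down.

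All values are log2 expression, centred for each probe set on its median over the 4 arrays, so that they show differences between arrays and no level of expression. For this reason the defining markers of myoblasts could not be checked by their level. With 1 array per condition there was no replicate, and no difference within a format or a cell line could be tested. The 45 bacterial control probe sets give a partial measure of technical spread. Their differences had an SD of 0.22 between the L6-HGF and L6-WT sheets and 0.12 between the monolayers, and 0 of them passed 2-fold in any comparison. The 3′ minus 5′ probe differences, compared between arrays, are a sign of RNA quality. Both probe sets are centred, so that values near 0 say nothing of the quality shared by all 4 arrays. For GAPDH the differences lay between -0.02 and 0.08 over the 4 arrays. For beta-actin they split by format, with 0.08 in the L6-HGF sheet and 0.11 in the L6-WT sheet, against -0.12 in the L6-HGF monolayer and -0.06 in the L6-WT monolayer. The part of this split in the differences between sheets and monolayers was not tested.

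The starts of the genes are shown first, because many genes of this group are textbook targets of E2F. RefSeq promoters of the rat assembly GRCr8 were found for 36 of the 41 genes, and the 250 bases before the first listed start were searched. The letters searched were TTTCCCGC, TTTCGCGC, TTTGCCGC and TTTGGCGC on both strands. At least 1 match was present in 8 of the 36 promoters (22.2%), against 2.95% of 11700 promoters of genes measured on the array and 1.81% of all 27457 rat promoters. The 8 genes were Chek1, Gins1, Mcm2, Mcm5, Mcm6, Mcm7, Pola1 and Tyms. They include 4 of the 5 MCM ring genes with a promoter in the table. The 5 promoters of Mcm2, Mcm5, Mcm6, Mcm7 and Gins1 are printed with that of Pole2, the gene with the largest difference between the L6-HGF and L6-WT sheets, which had no match. Each runs 5′ to 3′ on the strand of its gene and ends at the base before the start. Capitals mark the E2F letters, and matches on both strands that overlap form 1 run of capitals.
Mcm2, chr4:122918095-122918344, minus strand: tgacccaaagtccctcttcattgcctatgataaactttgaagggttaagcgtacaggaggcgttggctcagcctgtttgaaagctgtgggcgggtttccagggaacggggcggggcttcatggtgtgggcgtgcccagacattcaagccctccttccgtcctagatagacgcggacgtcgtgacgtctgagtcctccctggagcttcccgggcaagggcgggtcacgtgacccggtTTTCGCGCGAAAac
Mcm5, chr19:13488563-13488812, plus strand: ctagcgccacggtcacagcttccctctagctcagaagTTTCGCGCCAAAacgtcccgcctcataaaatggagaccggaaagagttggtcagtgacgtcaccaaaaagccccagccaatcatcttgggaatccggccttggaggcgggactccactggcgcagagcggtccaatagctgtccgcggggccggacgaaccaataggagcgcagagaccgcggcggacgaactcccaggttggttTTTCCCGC
Mcm6, chr13:42404353-42404602, minus strand: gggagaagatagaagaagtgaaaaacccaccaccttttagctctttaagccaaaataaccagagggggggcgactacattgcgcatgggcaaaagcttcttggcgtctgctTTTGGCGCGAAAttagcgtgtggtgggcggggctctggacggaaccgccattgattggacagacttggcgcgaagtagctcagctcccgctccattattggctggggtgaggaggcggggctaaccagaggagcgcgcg
Mcm7, chr12:22163179-22163428, minus strand: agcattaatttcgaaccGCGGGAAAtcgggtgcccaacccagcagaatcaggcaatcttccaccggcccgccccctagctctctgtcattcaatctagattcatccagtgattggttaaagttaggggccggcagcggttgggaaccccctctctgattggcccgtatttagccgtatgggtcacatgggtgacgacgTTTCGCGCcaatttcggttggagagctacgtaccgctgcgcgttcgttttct
Gins1, chr3:160184670-160184919, plus strand: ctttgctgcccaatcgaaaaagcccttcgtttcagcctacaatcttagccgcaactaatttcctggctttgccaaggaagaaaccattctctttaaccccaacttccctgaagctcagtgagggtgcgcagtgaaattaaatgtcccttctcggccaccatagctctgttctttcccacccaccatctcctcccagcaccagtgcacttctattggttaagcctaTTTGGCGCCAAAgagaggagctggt
Pole2, chr6:93435362-93435611, minus strand: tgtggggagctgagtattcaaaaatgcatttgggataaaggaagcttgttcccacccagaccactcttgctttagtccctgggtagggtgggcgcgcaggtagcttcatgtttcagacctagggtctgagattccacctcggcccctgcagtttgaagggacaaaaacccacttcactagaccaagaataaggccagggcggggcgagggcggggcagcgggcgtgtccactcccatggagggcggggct

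A match is a description of the sequence and not a bound site. Only the exact letters listed were searched, so that tttggcggg in Cdc45 and Pola2 counted as no match. The 8 genes with a match had a median difference between the L6-HGF and L6-WT sheets of -0.76, and the 28 genes without one had a median of -0.73. In the L6-HGF line the sheet minus monolayer medians were -1.51 with a match and -1.14 without. The genes with a match include Mcm2, Mcm5, Mcm6 and Mcm7, and the MCM ring had a median of -1.48 there. Match and role were not separated. The CCAAT box, searched as CCAAT on both strands, was present in 55.6% of the 36 promoters against 35.1% of those of measured genes. The shares were 61.1% and 54.2% for the GC box GGGCGG, and 5.56% and 10.9% for TTTGAA, the letters of the cell cycle homology region of G2 and M phase genes.

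Across the 4 arrays the replication genes followed a common order. The L6-HGF sheet had the lowest value for 39 of the 41 genes, where it was lowest for 26.0% of all genes. The L6-HGF monolayer had the highest value for 31 of them (23.3% of all genes) and the L6-WT monolayer for 9 (20.5%). The full order of L6-HGF sheet, L6-WT sheet, L6-WT monolayer and L6-HGF monolayer, from low to high, was found for 28 genes (7.53% of all genes). In the L6-HGF sheet the 41 genes ran from -1.45 to -0.12 with a median of -0.84, and in the L6-WT sheet from -0.54 to 0.28 with a median of -0.17. In the L6-HGF monolayer they ran from -0.0003 to 0.81 with a median of 0.32, and in the L6-WT monolayer from -0.25 to 0.54 with a median of 0.17. The L6-HGF sheet and the L6-HGF monolayer thus lay farthest apart, with the arrays of L6-WT between them. In these bulk cultures, fewer cells in S phase and less RNA of these genes per cell cannot be told apart.

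**Figure D1:**
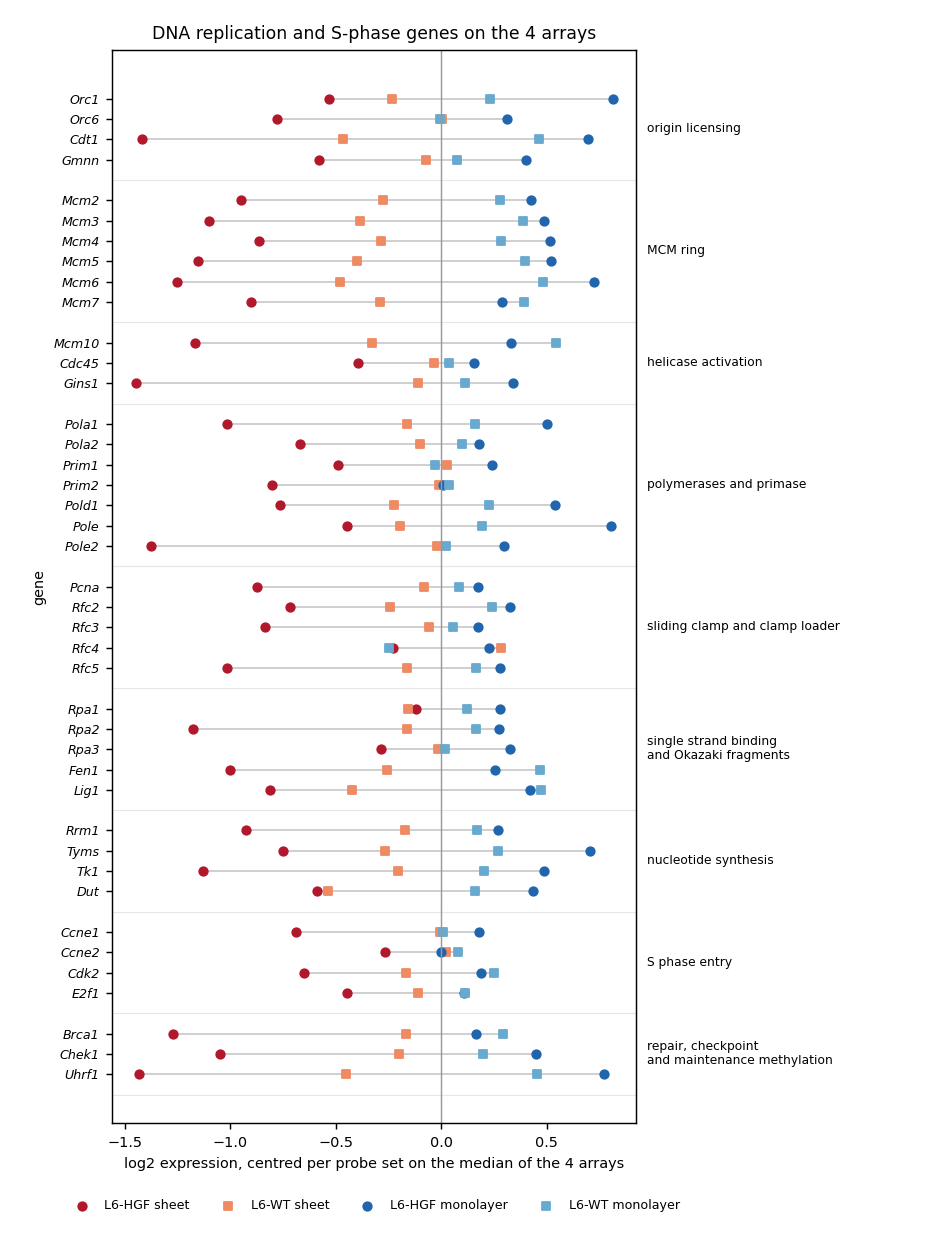
Log2 expression of each of the 41 replication genes, centred per probe set on the median of the 4 arrays, on the horizontal axis, with genes on the vertical axis by role. Each marker is 1 array, and the L6-HGF sheet lies farthest to the left for 39 of the 41 genes.

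The first comparison asked how hgf-transduced and wild-type myoblasts differed within sheets. Replication genes of every role were lower in the L6-HGF sheet, with role medians between -0.98 for the repair and checkpoint genes and -0.39 for the single-strand and Okazaki genes. Of the 41 genes, 40 lay below 0 (53.7% of all genes) and 1 above (46.2%), with a median of -0.68 against -0.02 over all genes. The bacterial controls had a mean of 0.01 between sheets and ran from -0.51 to 0.36. Orc1, Gmnn, Cdc45, Pole, Rfc2, Rfc4, Rpa1, Rpa3, Lig1, Tyms, Dut, Ccne2, Cdk2 and E2f1 lay within that range. The 4 genes lower by more than 2-fold were Pole2, Gins1, Brca1 and Rpa2, where 0.95% of all genes were lower by that much. No replication gene was higher by more than 2-fold (0.492% of all genes). The threshold fell within a close run of values, with Rpa2 just inside at -1.01 and Uhrf1 just outside at -0.98. After quantile normalization of the centred values, the median was -0.41 and 0 genes were lower by more than 2-fold (0.443% of all genes).

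Pole2, a subunit of the leading-strand polymerase epsilon, had the largest difference. Its values were -1.37 in the L6-HGF sheet and -0.02 in the L6-WT sheet, against 0.30 in the L6-HGF monolayer and 0.02 in the L6-WT monolayer. The L6-HGF sheet stood farthest apart, 2.55-fold lower than the L6-WT sheet, and the L6-HGF monolayer lay above both arrays of L6-WT.

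Gins1, a subunit of the GINS complex that turns the MCM ring into an active helicase, was similar. It had -1.45 in the L6-HGF sheet and -0.11 in the L6-WT sheet, against 0.34 in the L6-HGF monolayer and 0.11 in the L6-WT monolayer. The difference between sheets was 2.52-fold. Its promoter, printed above, holds a run of E2F letters close to the start, which that of Pole2 lacks.

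Brca1, which acts in the repair and protection of broken and stalled forks, was 2.15-fold lower in the L6-HGF sheet. Its values were -1.27 in the L6-HGF sheet and -0.17 in the L6-WT sheet, with 0.17 in the L6-HGF monolayer and 0.29 in the L6-WT monolayer. Unlike Pole2 and Gins1, Brca1 lay below 0 in monolayers too, 1.09-fold lower in L6-HGF. The other repair and checkpoint members, Chek1, the kinase of the replication checkpoint, and Uhrf1, which guides maintenance methylation to new DNA, were 1.80-fold and 1.97-fold lower in the L6-HGF sheet.

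The single-strand binding complex RPA, which coats unwound DNA, showed unequal differences between its subunits. Rpa2 had -1.17 in the L6-HGF sheet and -0.16 in the L6-WT sheet, against 0.28 in the L6-HGF monolayer and 0.16 in the L6-WT monolayer. Rpa1, the largest subunit, was the gene nearest to 0 between sheets, with -0.12 in the L6-HGF sheet and -0.16 in the L6-WT sheet, against 0.28 in the L6-HGF monolayer and 0.12 in the L6-WT monolayer. Rpa3, the smallest subunit, was 1.20-fold lower in the L6-HGF sheet. The values of the 3 subunits therefore ran from a 2.01-fold lower Rpa2 to a 1.02-fold higher Rpa1. Each rests on 1 probe set, and the spread between subunits was not tested. Of the enzymes that finish Okazaki fragments, the flap nuclease Fen1 was 1.68-fold lower and the ligase Lig1 1.31-fold lower in the L6-HGF sheet.

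The 6 subunits of the MCM ring were lower in the L6-HGF sheet by nearly the same amount. Their differences ran from -0.77 for Mcm6 to -0.58 for Mcm4, with a median of -0.69 and an SD of 0.08 over the 6 genes, against an SD of 0.30 over the 41. Mcm5, for example, had -1.15 in the L6-HGF sheet and -0.40 in the L6-WT sheet. Of the helicase factors, Mcm10 was 1.78-fold lower and Cdc45 1.29-fold lower. The 4 probe sets of Cdc45 ran from -0.61 to 0.16, so that its mean hides a disagreement.

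Among the licensing genes, Cdt1, the loader of the MCM ring, was 1.93-fold lower in the L6-HGF sheet, and Orc6 1.72-fold lower. Gmnn, which encodes the Cdt1 inhibitor geminin, was 1.42-fold lower, but its 2 probe sets gave -0.98 and -0.03. The other polymerase genes were lower by between 1.19-fold, for the catalytic subunit Pole, and 1.81-fold, for the catalytic subunit Pola1 of polymerase alpha. The sliding clamp Pcna was 1.73-fold lower, and the loader subunits Rfc2 to Rfc5 were lower by 1.39-fold to 1.81-fold.

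Nucleotide synthesis was less even. Tk1, thymidine kinase, was 1.90-fold lower in the L6-HGF sheet, the ribonucleotide reductase subunit Rrm1 1.69-fold and thymidylate synthase Tyms 1.40-fold lower. Dut, the enzyme that keeps uracil out of DNA, was close to 0 only as a mean, since its 2 probe sets had differences of -0.86 and 0.75. The probe sets of Tk1 ran from -1.32 to -0.21. Of the S phase entry genes, which drive the transition, Ccne1 was 1.61-fold lower, Cdk2 1.40-fold, E2f1 1.26-fold and Ccne2 1.22-fold lower in the L6-HGF sheet.

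The same comparison in monolayers gave smaller values, mostly on the other side of 0. Of the 41 genes, 32 were higher in the L6-HGF monolayer (50.4% of all genes) and 9 lower (49.4%), with a median of 0.16 against 0.0016 over all genes. None passed 2-fold in either direction, where 0.309% of all genes were lower and 0.225% higher by that much. The bacterial controls had a mean of 0.09 in this comparison and ran from -0.18 to 0.35. At a 1.5-fold threshold 1 gene, Pole, was higher.

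Pole, the catalytic subunit of polymerase epsilon, had the largest difference in monolayers, 1.53-fold. It had -0.44 in the L6-HGF sheet and -0.19 in the L6-WT sheet, against 0.81 in the L6-HGF monolayer and 0.19 in the L6-WT monolayer. Pole and Pole2 encode subunits of the same enzyme but differed in opposite order, Pole more in monolayers and Pole2 more in sheets.

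Orc1, the largest subunit of the origin recognition complex, followed with a 1.49-fold difference in monolayers. Its values were -0.53 in the L6-HGF sheet and -0.23 in the L6-WT sheet, against 0.81 in the L6-HGF monolayer and 0.23 in the L6-WT monolayer. Rfc4 of the clamp loader was 1.39-fold higher in the L6-HGF monolayer, with -0.23 in the L6-HGF sheet and 0.28 in the L6-WT sheet, against 0.23 in the L6-HGF monolayer and -0.25 in the L6-WT monolayer. Rfc4 was 1 of the 2 genes, with Rpa1, for which the L6-HGF sheet was not the lowest array.

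Of the 9 genes lower in the L6-HGF monolayer, Mcm10 lay farthest from 0 at -0.22, followed by Fen1 at -0.21. The others were Brca1, Mcm7, Ccne2, Cdk2, Lig1, Prim2 and E2f1. All 9 were lower in the L6-HGF sheet as well. The origin licensing genes had the highest median of any role in monolayers, 0.32, with 4 of 4 above 0, and the S phase entry genes the lowest, -0.03, with 1 of 4 above 0. Of the 41 genes, 31 had a lower value in the L6-HGF sheet and a higher one in the L6-HGF monolayer, each against L6-WT (23.1% of all genes). A further 9 were lower in both formats (30.4%) and 1, Rpa1, was higher in both (27.2%).

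**Figure D2:**
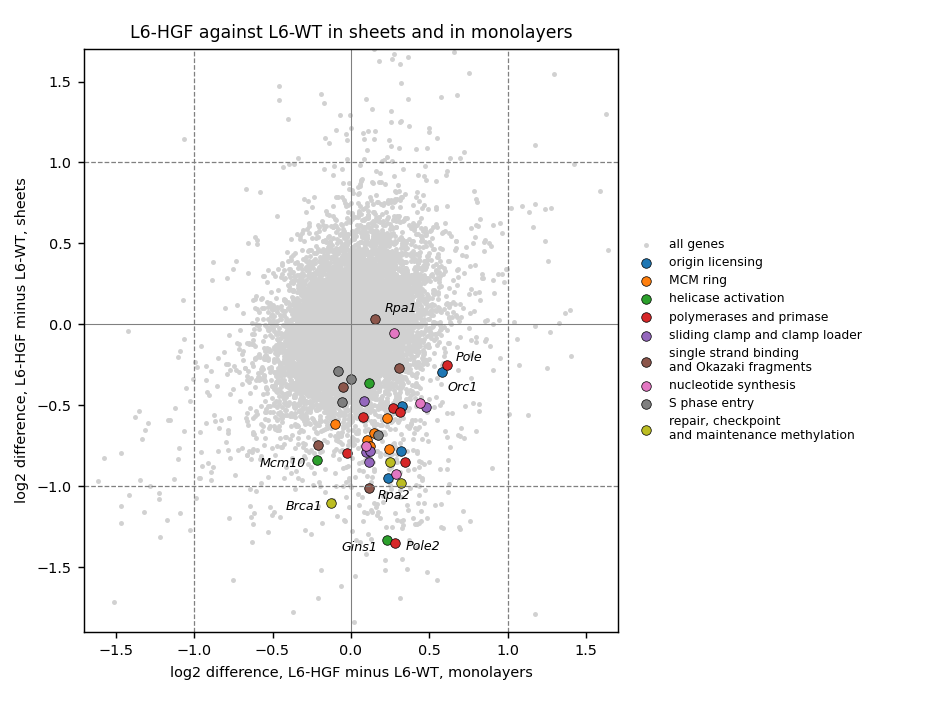
L6-HGF minus L6-WT on the log2 scale in sheets (vertical axis) and in monolayers (horizontal axis), with 1 point per gene, replication genes coloured by role and dashed lines at 2-fold. Most replication genes lie below 0 on the vertical axis and right of 0 on the horizontal axis, and 25 of the other genes fall outside the axes.

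The difference of the L6-HGF effect between formats was taken as the sheet difference minus the monolayer difference. It was below 0 for all 41 genes (52.4% of all genes), with a median of -0.85 against -0.01 over all genes. It ran from -1.63 for Pole2 to -0.12 for Rpa1 and passed -1 for 10 genes (1.43% of all genes). With 4 arrays no degree of freedom is left for a test of this difference. It was below 0 for all 41 genes after quantile normalization too, with a median of -0.61. The share of all genes below 0 was not computed after quantile normalization.

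The effect of the sheet format within each line was described next. In the L6-HGF line, each of the 41 genes was lower in the sheet than in the monolayer (45.9% of all genes) and 0 were higher (53.9%), with a median of -1.25 against 0.03 over all genes. In this line 29 genes were lower by more than 2-fold, where 2.57% of all genes were, and 0 were higher by that much (1.17%). Rfc3 lay just inside the threshold at -1.01 and Gmnn just outside at -0.98. The 2 probe sets of Gmnn gave -1.68 and -0.28 here, so that its mean hides a disagreement. This comparison shares the L6-HGF sheet array with that between sheets and is not independent of it. Quantile normalization of the centred values left 19 genes lower by more than 2-fold (1.7% of all genes) and a median of -0.98. Of 10 fibroblast markers, 5 were higher and 5 lower in the L6-HGF sheet than in its monolayer, with a median of -0.13. The 4 higher by more than 2-fold were Dpt (11.2-fold), Postn (7.16-fold), Dcn (5.24-fold) and Lum (2.06-fold). Col1a1 was the lowest of the 10, 1.81-fold lower in the sheet. The part of the fibroblast markers in the differences of the replication genes was not tested.

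Uhrf1 had the largest sheet difference in L6-HGF, 4.61-fold lower, with -1.43 in the sheet and 0.77 in the monolayer. Cdt1 was 4.33-fold lower, with -1.42 in the sheet and 0.70 in the monolayer. Mcm6 was 3.94-fold lower, with -1.25 in the sheet and 0.73 in the monolayer. Uhrf1 acts in maintenance methylation, and Cdt1 and Mcm6 in the loading and make-up of the helicase. All 6 MCM ring genes passed 2-fold, from 2.28-fold for Mcm7 to Mcm6, as did all 4 nucleotide synthesis genes and all 3 repair and checkpoint genes. Here the 2 probe sets of Dut gave -1.5 and -0.6, and the 3 of Tk1 ran from -2.35 to -0.42. The polymerase and primase genes passed in 4 of 7 cases, the clamp and its loader in 4 of 5, and the single-strand and Okazaki genes in 3 of 5. After quantile normalization the counts were 5 of 6 for the MCM ring (without Mcm7), 2 of 4 for nucleotide synthesis (without Dut and Rrm1) and 0 of 5 for the clamp and its loader (without Pcna, Rfc2, Rfc3 and Rfc5). The single-strand and Okazaki genes then had 1 of 5 (without Fen1 and Lig1), and Orc6 of origin licensing was lost too. None of the 4 S phase entry genes passed, and Ccne2 had the smallest difference of the 41 at 1.20-fold, with 2 probe sets at -0.57 and 0.04.

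In the L6-WT line the sheet was lower than the monolayer as well, but by less. The median was -0.39 against 0.03 over all genes, with 38 genes below 0 (45.6% of all genes) and 3 above (54.2%). None passed 2-fold in either direction, where 0.492% of all genes were lower and 0.717% higher. The bacterial controls had a mean of 0.20 for sheet minus monolayer in L6-WT and ran from -0.12 to 0.49. In the L6-HGF line their mean was 0.12, with a range from -0.30 to 0.34. The same 4 fibroblast markers were higher by more than 2-fold in the L6-WT sheet, Dcn by 10.3-fold and Dpt by 10.1-fold. Of the 10 markers, 6 lay above 0 and 4 below, with a median of 0.39 and Col1a1 lowest at -0.43. At 1.5-fold 10 replication genes were lower, where 3.76% of all genes were. The largest difference was that of Mcm6, 1.95-fold lower with -0.48 in the sheet and 0.48 in the monolayer, and Cdt1 followed at 1.90-fold and Uhrf1 at 1.87-fold.

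By role, the MCM ring had a median of -1.48 in L6-HGF and -0.73 in L6-WT. The polymerases and primase had -1.25 in L6-HGF and -0.20 in L6-WT, and the clamp and its loader -1.04 in L6-HGF and -0.17 in L6-WT. Pole2 was 3.19-fold lower in the sheet in L6-HGF and 1.03-fold lower in L6-WT, and Prim2 1.76-fold and 1.03-fold. Rfc4, Prim1 and Orc6 were the genes above 0 in L6-WT, and Rfc4, at 1.44-fold, was the largest of them. Each line has 1 array per format, so that these gaps between lines were not tested.

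**Figure D3:**
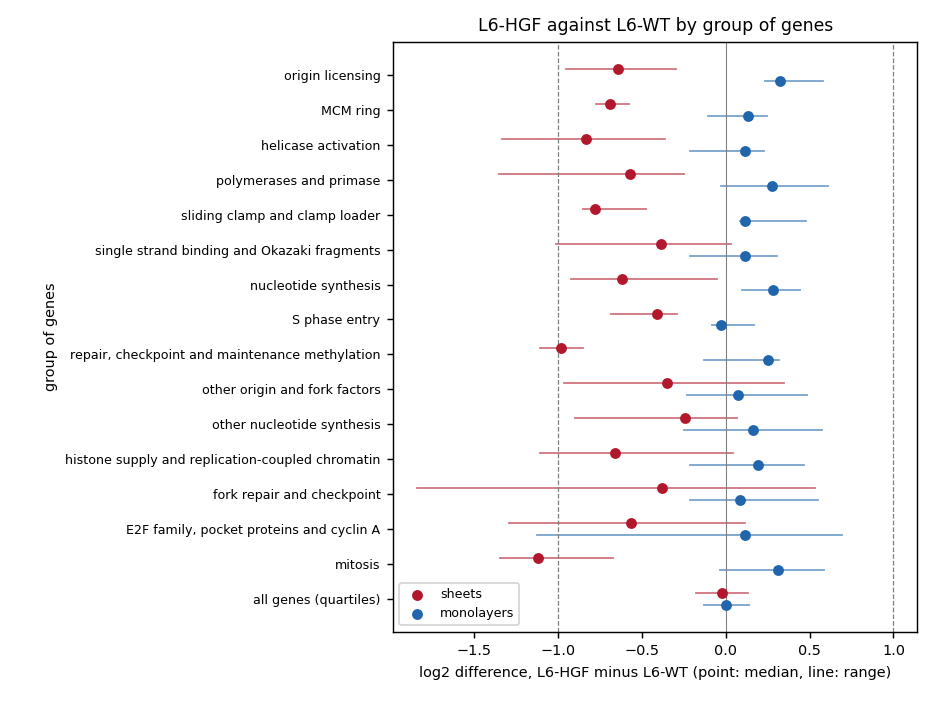
L6-HGF minus L6-WT on the log2 scale (horizontal axis) by group of genes (vertical axis), in sheets and in monolayers, with points at the median and lines over the range (quartiles for all genes), the wider list and mitosis included, and dashed lines at 2-fold. The medians of the 9 roles lie between -0.98 and -0.39 in sheets and between -0.03 and 0.32 in monolayers.

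A test over all 4 arrays was possible only for effects common to both formats or to both lines, with 1 residual degree of freedom. Its p-values measure only the spread between these arrays, and the residual also holds any true difference of the effect between formats. For the effect common to both formats, limma called 0 of the 41 genes and 0 of 14217 genes, and the smallest adjusted p of a replication gene was 0.534. At an unadjusted p under 0.05, 2 replication genes were lower, Fen1 and Mcm10, where 4.99% of all genes were lower. For this effect 0 replication genes were higher (4.23% of all genes). For the sheet effect common to both lines, limma called 0 of the 41 genes, with a smallest adjusted p of 0.115, and 1 lower and 1 higher gene over the array. At an unadjusted p under 0.05, 28 of the 41 were lower in sheets, where 13.3% of all genes were, and 0 were higher (11.1% of all genes). No replication gene thus passed the adjusted threshold for either effect.

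**Figure D4:**
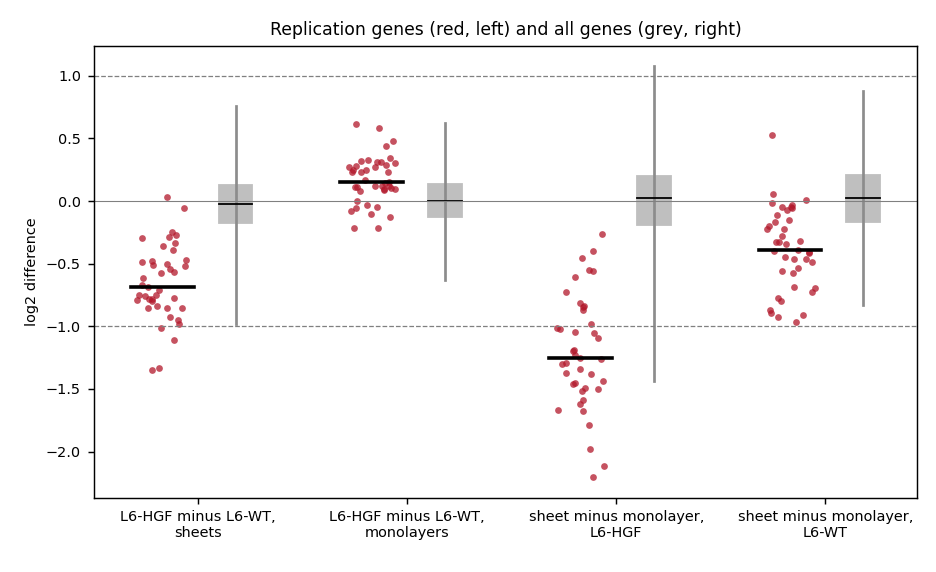
Log2 difference (vertical axis) in each comparison (horizontal axis), with a point for each of the 41 replication genes and a line at their median, beside grey boxes for the quartiles and lines for the central 98% of the 14217 genes. The replication genes have medians of -0.68 in sheets and 0.16 in monolayers for L6-HGF against L6-WT, and of -1.25 in L6-HGF and -0.39 in L6-WT for sheet against monolayer.

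A wider list of 101 genes that act beside the 44 was described in the same way, and 86 of them were measured. Between sheets their median was -0.40, with 69 below 0 (53.7% of all genes) and 17 above (46.2%). The 6 genes lower in the L6-HGF sheet by more than 2-fold were Esco2, E2f7, Ccna2, E2f8, Asf1b and Nasp, where 0.95% of all genes were. Esco2, the acetyltransferase that sets cohesion behind the fork, had -1.68 in the L6-HGF sheet and 0.16 in the L6-WT sheet, a 3.58-fold difference. This was larger than that of any of the 41 genes.

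E2f7 and E2f8, the E2F factors that repress the S-phase program late in the cycle, were 2.45-fold and 2.31-fold lower in the L6-HGF sheet. Ccna2, cyclin A2 of S and G2 phase, was 2.41-fold lower in the L6-HGF sheet and 1.62-fold higher in the L6-HGF monolayer. The histone chaperones Asf1b and Nasp, which supply histones to new DNA, were 2.15-fold and 2.06-fold lower in the L6-HGF sheet.

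Not every gene of the machinery followed. The other origin recognition subunits Orc2 to Orc5 had sheet differences between -0.04 and 0.34, while Orc1 had -0.30 and Orc6 -0.78. The largest positive values in sheets were 0.53 for Rad17, a clamp loader of the checkpoint, and 0.35 for Pold4, the small subunit of polymerase delta. In monolayers the wider list had a median of 0.11, with 60 genes above 0 (50.4% of all genes) and 26 below (49.4%). Only Tfdp2, a partner of E2F factors, passed 2-fold there, 2.19-fold lower in the L6-HGF monolayer (0.309% of all genes). Tfdp2 had -0.90 in the L6-HGF sheet and 0.06 in the L6-WT sheet, against -0.06 in the L6-HGF monolayer and 1.07 in the L6-WT monolayer. For Tfdp2 the L6-WT monolayer stood alone at the high end.

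Genes of mitosis, the next step of the cycle, lay lower still between sheets. Of 17 measured, 11 were lower in the L6-HGF sheet by more than 2-fold, where 0.95% of all genes were. The median of the 17 was -1.12 in sheets and 0.31 in monolayers. Markers of other cell states differed as well. The 8 myotube markers had medians of -0.80 in sheets and -1.43 in monolayers, 10 fibroblast markers of -0.65 and -0.22, 4 endothelial markers of -0.04 and -0.01, and 4 myoblast markers of 0.21 and -0.15, for L6-HGF against L6-WT in sheets and in monolayers in that order. All 8 myotube markers lay below 0 in both formats (30.4% of all genes). The median of the replication genes, in contrast, was below 0 in sheets and above it in monolayers. The part of these markers in the differences of the replication genes was not tested.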

How the data were processed

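Total RNA of 4 L6 cultures was hybridised to GeneChip Rat Genome arrays, 1 for each condition. RMA was used by the authors for normalization (version not given in the sources used here), and the deposited log2 values are centred, with the median of each probe set over the 4 arrays at 0. Signal levels are lost by this step, while differences between arrays are kept, so dim probe sets could not be filtered out. Precision is limited by the number of arrays.

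Of 31099 probe sets, 57 controls were left out. Of the remaining 31042, 20826 had 1 symbol in the platform annotation, 436 had several and 9780 were unlisted. The Entrez identifier was matched to the rat RefSeq table for 20758, which changed 0 symbols. Genes were means over probe sets of 1 symbol. Differences were log2, with 2-fold as the threshold, and no test was run within a format or line. The limma fit (version 3.58.1, R 4.3.3) had terms for cells and format, with Benjamini-Hochberg adjustment over all genes. It was run on simulated data with noise of the same size in every gene and no difference of the effect between formats. That run checks the code and cannot show how the fit behaves on these arrays. Python 3.11.15, pandas 2.3.3, numpy 2.4.6 and matplotlib 3.10.9 were used.

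The members and lists were chosen with earlier results of these data known, which already showed cell cycle genes, so the pattern is no independent support. Values on every array were given for members past 2-fold between L6-HGF and L6-WT, the 3 largest in monolayers and the one nearest 0 in sheets, and, in the wider list, genes past 2-fold between L6-HGF and L6-WT were named with the largest in each direction. Others were named after their values were seen. Alternatives were quantile normalization, a shift of each array to a gene median of 0, the median of probe sets and a 1.5-fold threshold. Further ones were leaving out probe sets with names ending in _x_at, _s_at or _a_at, and limma on probe sets or with 1 term.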

Additional observations from a re-analysis of the deposited data

Results flagged for a closer look

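For 12 of the 41 replication genes, L6-HGF was lower than L6-WT in sheets and higher in monolayers, both by more than 2 SDs of the bacterial controls (0.44 in sheets and 0.24 in monolayers), where 1.29% of all genes were. The controls themselves had a mean of 0.09 in monolayers and reached 0.35 there, and -0.51 in sheets. Of the 12 genes, 10 lay within the controls' range in monolayers, and 3, Gmnn, Rfc4 and Tyms, in sheets. With 1 array per condition the difference between formats was not tested. It is given as the sheet difference minus the monolayer difference, on the log2 scale. Pole2 of polymerase epsilon had the largest of the 12, -1.63, followed by -1.30 for Uhrf1, -1.21 for Tk1 and -1.20 for Pola1. Orc6 and Chek1 each had -1.10, Mcm6 -1.02, Rfc4 -0.98 and Tyms -0.93. The smallest were -0.85 for Pold1, -0.83 for Gmnn and -0.78 for Prim1. The 12 genes come from origin licensing, the MCM ring, the polymerases and primase, the clamp loader, nucleotide synthesis and the repair and checkpoint genes. Gins1 of the helicase activation genes, with -1.56, fell just short of the monolayer bound at 0.23. The 2 probe sets of Gmnn and the 3 of Tk1 disagreed in size, as given above, and single probe sets missed the bounds. A probe set of Gmnn had -0.03 in sheets and 0.235 in monolayers, short of both bounds (0.4365 and 0.2424 before rounding). A probe set of Tk1 had -0.21 in sheets, short of the sheet bound. A probe set of Orc6 had 0.19 in monolayers, short of the monolayer bound.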

How the results depend on the processing

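For the replication genes, direction held more firmly than size. The L6-HGF sheet was the lowest array for 38 of 41 genes after quantile normalization and 39 of 41 after a shift of each array or with the median of probe sets. It was lowest for 37 of 39 without probe sets with names of 3 endings, _x_at, _s_at and _a_at. As reported, it was lowest for 26.0% of all genes, and this share was not computed under the alternatives. No called difference changed sign under these alternatives. Quantile normalization acted on centred values and gave the 4 arrays the same distribution, so that it narrows an array of wider spread by construction. It left 0 genes lower by more than 2-fold between L6-HGF and L6-WT sheets (0.443% of all genes), with a median of -0.41. Between L6-HGF sheet and monolayer it left 19 (1.7%), with a median of -0.98. At 1.5-fold, 23 genes were lower in the L6-HGF than in the L6-WT sheet (3.58% of all genes), 1 was higher in the L6-HGF than in the L6-WT monolayer (1.22%) and 10 were lower in the L6-WT sheet than in the L6-WT monolayer (3.76%). Of the 2-fold calls between sheets, Rpa2 was lost under the array shift and Tk1 was gained with the median of probe sets, at -1.25. Without probe sets of the 3 endings, 26 of 39 genes were lower by more than 2-fold between L6-HGF sheet and monolayer (2.53% of 13844 genes). Mcm6 and Chek1 were then not measured, since each has only 1 probe set, ending in _a_at, and Orc6 no longer passed. In limma, 0 replication genes were called with 1 term (smallest adjusted p of 1 for L6-HGF and 0.105 for sheets) or on probe sets (0.505 and 0.158). A filter on dim probe sets was not run, since signal levels were lost. No paired analysis was possible because each condition has 1 array. For the same reason no replicate could be left out.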
